A study of Mus musculus with 15 samples.

Results

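The genes described here are 40 cell cycle and replication genes, measured in the hearts of mice given angiotensin II with or without oleic acid. They were chosen by symbol from the 36653 gene rows of the series, and each of the 40 symbols matched 1 row. For this report 25 are grouped as mitotic genes and 15 as replication genes. The replication group includes genes of nucleotide supply and of entry into S phase. The libraries were made from poly(A)-selected RNA of the ventricle of wild-type C57BL/6 mice aged 10 weeks. The AngII plus OA group had a subcutaneous pump that gave angiotensin II (AngII), a vasoconstrictor peptide, at 1000 ng/kg/min. These mice were also given oleic acid (OA), an unsaturated fatty acid, daily at 160 mg/kg in a volume of 0.3 mL. The AngII group had the same pump at the same dose and no oleic acid. The vehicle group was treated with saline. Each group had 5 libraries, which the labels call biological replicates without saying whether each is 1 animal. How long the mice were treated, and whether the AngII mice received the carrier of the oleic acid, is not stated in those labels.

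A dividing cell first makes its deoxynucleotides and loads, unwinds and copies its DNA, then condenses the chromosomes and separates them on a spindle. The transcripts for the replication step are switched on mainly by E2F factors at the passage into S phase. Those for mitosis peak later and are controlled through a cell cycle homology region (CHR) and CCAAT boxes in their promoters, bound by the MuvB core of the DREAM, B-Myb and FoxM1 complexes and by NF-Y. Cardiomyocytes of the adult mouse rarely divide, so in bulk ventricle such transcripts are rare and can come from any of its cell types. Fewer cells that express a gene and less RNA of it per cell cannot be told apart in these data.

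Expression is given as FPKM, a fragment count corrected for gene length and library size. The totals the FPKM were scaled by ran from 24.5 to 28.3 M fragments per library. The 8 cardiomyocyte markers checked, such as Myh6 and Tnnt2, summed to 26826 to 32268 FPKM in AngII plus OA, 14668 to 26980 in AngII and 24599 to 29690 in vehicle hearts. AngII replicate 2 held the lowest of these sums and the highest sums of atrial, adipocyte and mesothelial markers, and it stood apart on the first principal component. Mitochondrially encoded genes took 38.6% to 47.0% of the FPKM in AngII plus OA, 34.5% to 48.3% in AngII and 44.6% to 50.02% in vehicle hearts, and this share enters the scale of every other gene.

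The 40 genes were weakly expressed. The mean over the 15 libraries ran from 0.229 FPKM (Cenpe) to 9.17 FPKM (Cenpa) for the mitotic genes, with a median of 0.601, and no mitotic gene other than Cenpa was above 1.66 FPKM (Cdc20). The replication genes ran from 0.264 FPKM (Cdc6) to 18.01 FPKM (Pcna), with a median of 0.989 and Mcm7 next below Pcna at 3.098. The median mitotic gene rested on 66.1 reads per library and the median replication gene on 132.6. No member was at 0 in any library. A minimum of 0.5 for the mean FPKM, used for the tests, kept 18 of the 25 mitotic and 12 of the 15 replication genes. The mitotic genes Ccnb1, Aurkb, Bub1, Cenpe, Kif20a, Kif23 and Prc1 and the replication genes Cdc6, Ccne1 and E2f1 were below it. They were tested in a second fit with a minimum of 0.1 FPKM. Top2a, Ccna2, Birc5, Bub1b, Plk1, Kif11 and Tpx2 averaged under 0.5 FPKM in AngII plus OA and in vehicle hearts. These passed the minimum only through their AngII values, so counts and medians over the mitotic genes tested are tilted toward genes high in AngII. The second fit kept all 25 mitotic and all 15 replication genes.

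The promoters were searched for the motifs named above, which the choice of members did not use. RefSeq promoter windows (GRCm38.p6, 250 bases before to 50 after the start) were found for 21 mitotic and 13 replication genes. Letters were searched on both strands. The CHR was read as TTTGAA, or with a central CG as TTCGAA. The CCAAT box was read as those 5 letters. The E2F core was read as TTTCCCG, with the variant TTTCGCG, the variant TTTGGCG and the variant TTTGCCG. The CHR letters were in 17 of 21 mitotic windows (81.0%) and 2 of 13 replication windows (15.4%), beside 19.4% of the 27025 windows of all genes. CCAAT letters, with or without a CHR, were in 19 of 21 mitotic windows (90.5%) and 8 of 13 replication windows (61.5%), beside 37.9% of all windows. Most windows of both groups thus held them. CHR and CCAAT letters stood together in the same 17 mitotic windows (81.0%) and in 2 replication windows (15.4%), against 7.70% of all windows. The E2F letters went the other way, with 3 of 21 mitotic (14.3%), 5 of 13 replication (38.5%) and 6.85% of all windows. No different motifs overlapped in the members' windows, and copies of the same motif overlapped in Mcm5, Mcm6 and Ube2c. A match is a string of letters and not a measured binding site.

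**Figure D1:**
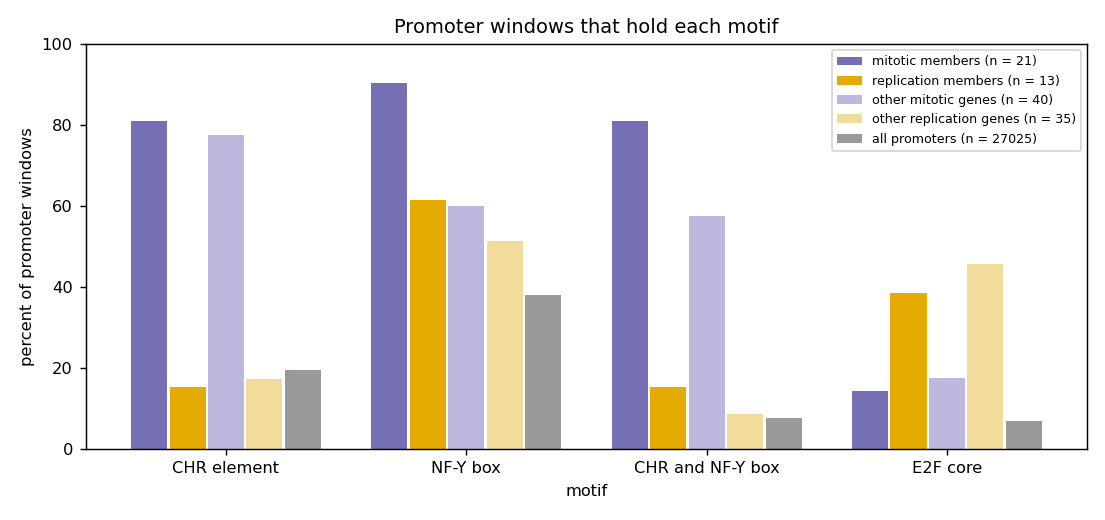
Share of promoter windows (vertical axis, percent) that hold the letters of each motif (horizontal axis), for mitotic members, replication members, other mitotic genes, other replication genes and all RefSeq mouse promoters. The mitotic bars stand at 81.0% for the CHR against 15.4% for replication members, and the order is the other way for the E2F core, at 14.3% and 38.5%.

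The windows of 6 mitotic genes are shown from 160 bases before the start to the base before it, 5′ to 3′ on the strand of the gene. Capitals mark CHR, CCAAT and E2F letters, which read TTCAAA where a CHR, and ATTGG where a CCAAT box, lies on the other strand. Trim59 (chr3:69044743-69044902, minus strand), Cdkn3 (chr14:46760381-46760540, plus strand) and Cdc20 (chr4:118437344-118437503, minus strand) are shown because they were called in the expression test. Cdk1 (chr10:69352913-69353072, minus strand), Mki67 (chr7:135716380-135716539, minus strand) and Top2a (chr11:99024190-99024349, minus strand) are shown as the mitotic kinase and the proliferation markers.
Trim59: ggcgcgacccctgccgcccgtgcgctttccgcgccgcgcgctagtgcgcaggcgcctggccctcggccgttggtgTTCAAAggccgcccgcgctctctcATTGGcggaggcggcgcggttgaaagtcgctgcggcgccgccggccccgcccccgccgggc
Cdkn3: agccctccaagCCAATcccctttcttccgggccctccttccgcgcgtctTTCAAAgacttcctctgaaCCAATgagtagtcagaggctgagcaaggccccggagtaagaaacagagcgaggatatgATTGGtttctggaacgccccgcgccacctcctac
Cdc20: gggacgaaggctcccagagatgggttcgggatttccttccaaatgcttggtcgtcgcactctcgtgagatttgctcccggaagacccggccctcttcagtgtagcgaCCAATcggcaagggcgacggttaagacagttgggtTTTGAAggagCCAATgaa
Cdk1: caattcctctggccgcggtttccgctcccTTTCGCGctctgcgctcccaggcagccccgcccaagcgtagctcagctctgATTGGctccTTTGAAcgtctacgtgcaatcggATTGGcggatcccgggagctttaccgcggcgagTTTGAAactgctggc
Mki67: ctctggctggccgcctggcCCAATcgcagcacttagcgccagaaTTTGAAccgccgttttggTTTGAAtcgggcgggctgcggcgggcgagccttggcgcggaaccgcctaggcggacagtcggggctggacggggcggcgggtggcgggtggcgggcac
Top2a: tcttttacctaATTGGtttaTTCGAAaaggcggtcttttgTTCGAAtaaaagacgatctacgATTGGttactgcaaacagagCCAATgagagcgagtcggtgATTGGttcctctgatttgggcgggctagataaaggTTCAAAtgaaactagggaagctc
Each of these holds at least 1 CHR, and the Cdk1 window also holds E2F letters. In Cdc20 the CHR lies 18 to 13 bases before the start with CCAAT letters on either side of it. The window of Nusap1, the other mitotic gene called, holds E2F letters and neither CHR nor CCAAT letters.

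A pair of replication promoters is shown for contrast, Mcm5 (chr8:75109349-75109508, plus strand) and Mcm6 (chr1:128359706-128359865, minus strand), which encode subunits of the replicative helicase. Capitals mark E2F and CCAAT letters on either strand.
Mcm5: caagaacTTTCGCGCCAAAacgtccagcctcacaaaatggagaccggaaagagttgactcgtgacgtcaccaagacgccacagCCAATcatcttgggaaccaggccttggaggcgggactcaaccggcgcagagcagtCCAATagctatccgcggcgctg
Mcm6: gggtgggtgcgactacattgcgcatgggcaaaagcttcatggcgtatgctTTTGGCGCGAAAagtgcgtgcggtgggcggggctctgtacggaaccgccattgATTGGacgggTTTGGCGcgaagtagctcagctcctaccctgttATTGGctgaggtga
Both hold a pair of E2F matches that overlap on opposite strands, and CCAAT letters, and neither holds CHR letters in the whole window.

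AngII against vehicle asks what the hormone changed in the ventricle. Of the 18 mitotic genes tested, 17 were higher in AngII hearts, beside 65.7% of all genes, and 4 passed the test, Trim59, Cdkn3, Nusap1 and Cdc20, where 1.27% of the 13121 genes tested passed as higher and 1.5% in either direction. None of the 12 replication genes tested passed in limma. The median log2 change was 0.45 over the mitotic genes, 0.071 over the replication genes and 0.075 over all genes tested. Some of these mitotic genes passed the minimum only through AngII, as listed above, and the second fit of all members is given below. All changes are on the log2(FPKM + 1) scale, which understates the change of genes as low as these. Among all genes tested, 166 were called higher and 31 lower at a Benjamini-Hochberg adjusted p under 0.05, and 74 higher and 44 lower after quantile normalization or 77 and 37 with the FPKM rescaled without mitochondrial genes.

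Trim59 (ENSMUSG00000034317), a RING-type tripartite-motif protein, was at 0.481, 0.853, 0.859, 0.562 and 0.639 FPKM in AngII plus OA hearts, 1.81, 1.54, 1.13, 1.24 and 1.46 FPKM in AngII hearts and 0.503, 0.680, 0.443, 0.602 and 0.777 FPKM in vehicle hearts. All 5 AngII libraries were above all 10 others, and the AngII plus OA and vehicle libraries overlapped. Its mean was 1.44 ± 0.264 FPKM in AngII and 0.601 ± 0.134 in vehicle hearts (SD, n = 5 each), and the log2 change was 0.60 (SE 0.10, limma adjusted p = 0.0127). No exon of Trim59 overlaps another annotated gene, and its call was kept in all 18 alternatives that tested it. With a minimum of 1 FPKM it was not tested, as its mean over the 15 libraries was 0.905 FPKM. Its place among the mitotic genes is that of the list, and a role in mitosis was not tested.

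Cdkn3 (ENSMUSG00000037628), a phosphatase that acts on cyclin-dependent kinases, was at 0.254, 0.850, 0.919, 0.926 and 0.693 FPKM in AngII plus OA hearts, 2.30, 2.05, 1.14, 1.59 and 2.22 FPKM in AngII hearts and 0.942, 0.895, 0.354, 0.386 and 0.632 FPKM in vehicle hearts. The AngII libraries were again all above the others, with the smallest gap at AngII replicate 3. Its log2 change of 0.80 (SE 0.15, limma adjusted p = 0.0226) was the largest among the mitotic genes tested and rests on 5 to 47 reads per library. The call was lost without AngII library 1 or 5 or vehicle library 4 or 5 (limma adjusted p 0.0555 to 0.0678).

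Nusap1 (ENSMUSG00000027306), which binds and bundles spindle microtubules, was at 0.582, 0.762, 0.608, 0.668 and 0.4998 FPKM in AngII plus OA hearts, 1.73, 1.37, 0.924, 1.12 and 1.35 FPKM in AngII hearts and 0.529, 1.06, 0.549, 0.506 and 0.521 FPKM in vehicle hearts. Vehicle replicate 2 reached into the AngII range and the other vehicle libraries lay close together below it. The log2 change was 0.49 (SE 0.11, limma adjusted p = 0.0368). Oip5 on the opposite strand covers 4.24% of its exon bases, and whether counting used strand is not stated. The call ended without AngII library 1, 2, 4 or 5 or vehicle library 1, 3, 4 or 5 (limma adjusted p 0.0504 to 0.101).

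Cdc20 (ENSMUSG00000006398), the activator of the anaphase-promoting complex, was at 1.22, 1.22, 1.0, 1.41 and 0.676 FPKM in AngII plus OA hearts, 3.63, 2.41, 1.61, 2.76 and 2.56 FPKM in AngII hearts and 1.05, 1.96, 1.38, 0.859 and 1.09 FPKM in vehicle hearts. Here too vehicle replicate 2 was the highest vehicle library and exceeded AngII replicate 3. The log2 change was 0.66 (SE 0.15, limma adjusted p = 0.0446), just inside the threshold. The call was lost without AngII library 1, 2, 4 or 5 or vehicle library 1, 3, 4 or 5 (limma adjusted p 0.0533 to 0.115). Elovl1 on the opposite strand covers 2.84% of its exon bases.

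**Figure D2:**
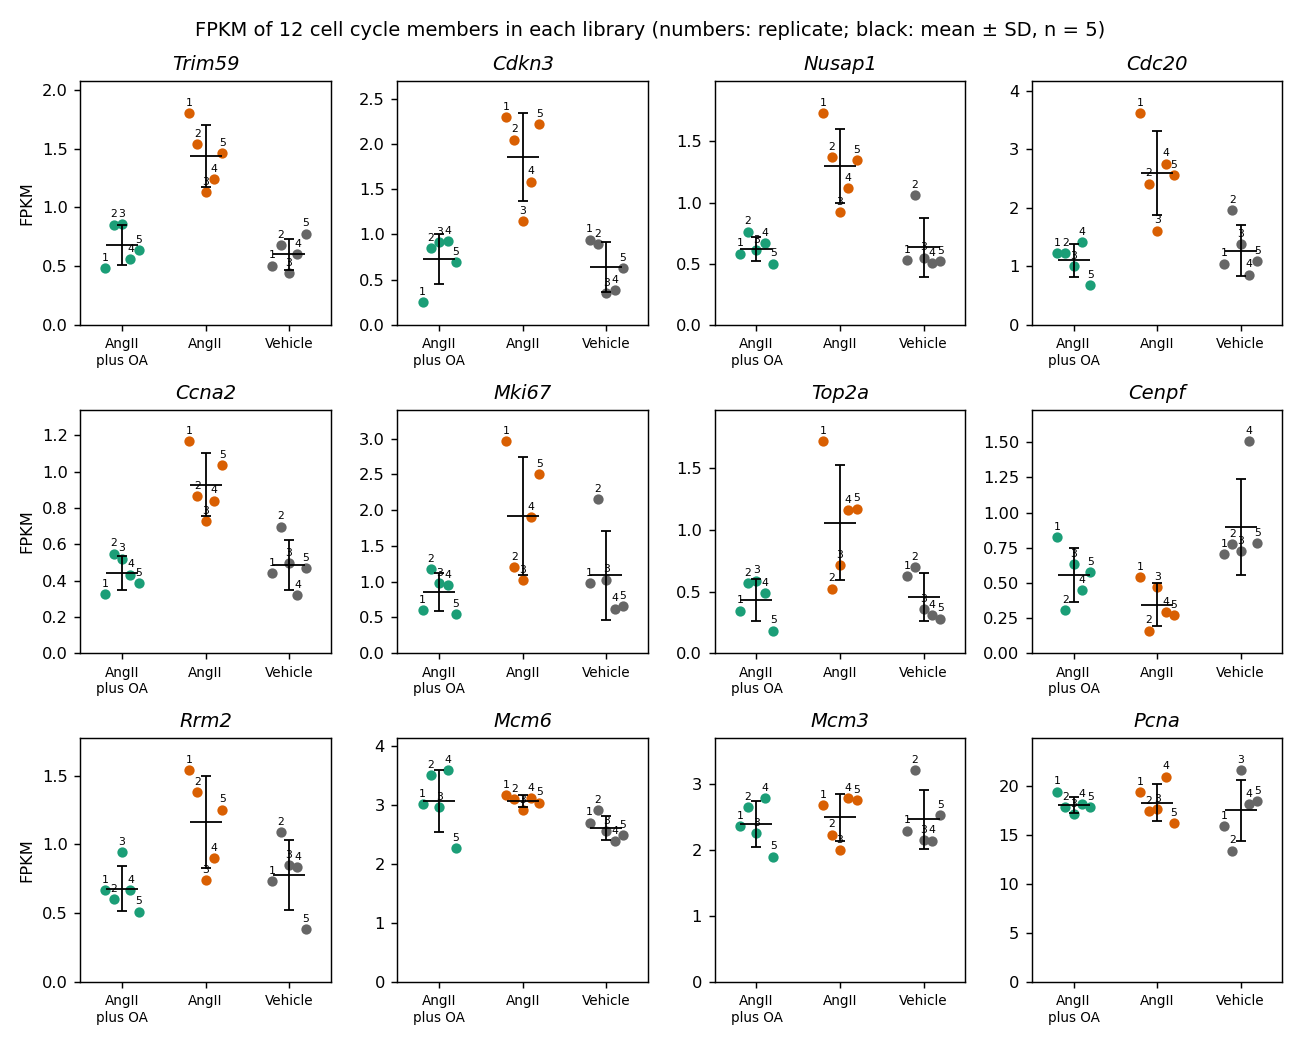
FPKM (vertical axis) of 12 members in the 15 libraries, grouped as AngII plus OA, AngII and vehicle, with the replicate number beside each point and black marks for the mean ± SD (n = 5). The AngII points of Trim59, Cdkn3 and Ccna2 lie above all others, Cenpf lies lowest in AngII, and Mcm3 and Pcna overlap in all groups.

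The cyclins and kinases that drive entry into mitosis followed the same direction without passing. Ccna2, cyclin A2, averaged 0.443 ± 0.0926 FPKM in AngII plus OA, 0.928 ± 0.174 in AngII and 0.485 ± 0.137 in vehicle hearts (SD, n = 5 each), and its AngII libraries (at least 0.728 FPKM) were all above the vehicle libraries (at most 0.698), yet its log2 change of 0.38 had a limma adjusted p = 0.0512. Exosc9 covers 12.5% of its exon bases. With the minimum for the mean FPKM at 0.1 it was among 4 members called. Ccna2, Cdkn3 and Trim59 were the mitotic genes whose AngII and vehicle values did not overlap in the higher direction, found for 3.13% of all genes tested. Of these, Ccna2 passed the minimum for the test only through its AngII values. Cdk1, the mitotic kinase, averaged 0.557 ± 0.241 FPKM in AngII plus OA, 1.41 ± 0.592 in AngII and 0.646 ± 0.427 in vehicle hearts, with a log2 change of 0.54. Its partner cyclin B2 (Ccnb2) averaged 0.905 ± 0.398 FPKM in AngII plus OA, 1.97 ± 1.12 in AngII and 0.781 ± 0.352 in vehicle hearts, and AngII replicate 1 alone reached 3.71 FPKM. Cyclin B1 (Ccnb1) was under the minimum for testing and stood at 0.0746, 0.247, 0.355, 0.295 and 0.0726 FPKM in AngII plus OA hearts, 1.01, 0.472, 0.319, 0.707 and 0.624 FPKM in AngII hearts and 0.273, 0.348, 0.185, 0.0531 and 0.106 FPKM in vehicle hearts. In the second fit, with a pseudocount of 0.1, Ccnb1 had a log2 change of 1.34 (limma adjusted p = 0.101). Ube2c, the ubiquitin-conjugating enzyme of the anaphase-promoting complex, averaged 0.747 ± 0.270 FPKM in AngII plus OA, 1.79 ± 0.787 in AngII and 0.763 ± 0.538 in vehicle hearts; Tnnc2 covers 22.8% of its exon bases on the opposite strand.

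The general proliferation markers were higher on average in AngII hearts without passing. Mki67, which encodes the Ki-67 protein on mitotic chromosomes, was at 0.606, 1.18, 0.985, 0.951 and 0.544 FPKM in AngII plus OA hearts, 2.96, 1.20, 1.02, 1.90 and 2.505 FPKM in AngII hearts and 0.979, 2.16, 1.03, 0.623 and 0.659 FPKM in vehicle hearts. Vehicle replicate 2 was higher than AngII replicates 2, 3 and 4, and the groups overlapped (log2 change 0.48, SE 0.20, limma adjusted p = 0.252). Top2a, the topoisomerase that untangles sister chromatids, averaged 0.433 ± 0.170 FPKM in AngII plus OA, 1.06 ± 0.464 in AngII and 0.454 ± 0.194 in vehicle hearts, with a log2 change of 0.48 (limma adjusted p = 0.120). Without AngII replicate 2, which had the lowest Top2a of its group at 0.523 FPKM, Top2a was called together with Cdkn3 and Trim59 and not Nusap1 or Cdc20.

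The next 6 mitotic genes had higher means in AngII than in vehicle hearts and did not pass. Tpx2, which activates Aurora A on the spindle, averaged 0.317 ± 0.142 FPKM in AngII plus OA, 0.887 ± 0.316 in AngII and 0.444 ± 0.217 in vehicle hearts, and Aurora A itself (Aurka) averaged 0.452 ± 0.0913 FPKM in AngII plus OA, 0.715 ± 0.265 in AngII and 0.522 ± 0.224 in vehicle hearts. Bub1b, a checkpoint kinase that restrains Cdc20, averaged 0.456 ± 0.0845 FPKM in AngII plus OA, 0.905 ± 0.282 in AngII and 0.429 ± 0.222 in vehicle hearts (log2 change 0.42 for AngII against vehicle). Kif11, the motor that pushes spindle poles apart, averaged 0.443 ± 0.173 FPKM in AngII plus OA, 0.893 ± 0.338 in AngII and 0.492 ± 0.155 in vehicle hearts. Polo-like kinase 1 (Plk1) averaged 0.429 ± 0.209 FPKM in AngII plus OA, 0.781 ± 0.276 in AngII and 0.435 ± 0.302 in vehicle hearts, and Birc5 (survivin), of the chromosomal passenger complex, averaged 0.421 ± 0.173 FPKM in AngII plus OA, 0.801 ± 0.238 in AngII and 0.465 ± 0.247 in vehicle hearts. Over these 6 genes the limma adjusted p ran from 0.0959 (Bub1b) to 0.503 (Aurka).

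The mitotic genes below the testing minimum had means under 1 FPKM in every group. Aurora B (Aurkb) averaged 0.320 FPKM in AngII plus OA, 0.5999 in AngII and 0.308 in vehicle hearts, and the checkpoint kinase Bub1 averaged 0.168 FPKM in AngII plus OA, 0.395 in AngII and 0.243 in vehicle hearts. Of the cytokinesis motors, Kif23 averaged 0.307 FPKM in AngII plus OA, 0.658 in AngII and 0.423 in vehicle hearts. Kif20a averaged 0.266 FPKM in AngII plus OA, 0.452 in AngII and 0.288 in vehicle hearts, and Cdc23 on the opposite strand covers 29.3% of the exon bases of Kif20a. The kinetochore motor Cenpe averaged 0.171 FPKM in AngII plus OA, 0.331 in AngII and 0.184 in vehicle hearts. Prc1, which bundles the central spindle, averaged 0.204 FPKM in AngII plus OA, 0.312 in AngII and 0.259 in vehicle hearts, with AngII replicate 1 the highest and AngII replicate 2 the lowest of all libraries. In the second fit, which tested all 25, 24 mitotic genes were higher in AngII than in vehicle hearts with a median log2 change of 0.82, beside 62.5% of all genes higher, while the median was 0.13 over the 15 replication genes and 0.090 over 17361 genes. That fit called Cdkn3, Nusap1 and Trim59, against 0.933% of its genes called higher.

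A pair of centromere genes stood apart from the other mitotic genes. Cenpf, a large kinetochore protein, was at 0.823, 0.308, 0.632, 0.447 and 0.575 FPKM in AngII plus OA hearts, 0.539, 0.161, 0.472, 0.291 and 0.270 FPKM in AngII hearts and 0.703, 0.778, 0.727, 1.51 and 0.783 FPKM in vehicle hearts. Every AngII library was below every vehicle library, as for 0.663% of all genes in the lower direction, and the log2 change was -0.49 (SE 0.13, limma adjusted p = 0.0676), which did not pass. Cenpa, the histone H3 variant that marks the centromere, was at 11.6, 16.3, 6.68, 9.99 and 10.4 FPKM in AngII plus OA hearts, 8.17, 2.67, 9.43, 13.0 and 11.1 FPKM in AngII hearts and 7.86, 8.91, 7.80, 6.64 and 6.93 FPKM in vehicle hearts. It was the most abundant mitotic gene by far, AngII replicate 2 was the lowest of all libraries, and its log2 change was 0.069 (95% interval -0.55 to 0.69), with the opposite sign after quantile normalization or rescaling without mitochondrial genes. The promoter windows of both hold CHR and CCAAT letters like those of most mitotic genes.

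At an unadjusted p under 0.05, 15 of the 18 mitotic genes tested were higher and Cenpf was lower, where 13.3% of all genes were higher and 3.29% lower at that level. Of the 12 replication genes, Rrm2 reached it. Of the 15 mitotic genes, Top2a, Ccna2, Birc5, Bub1b, Plk1, Kif11 and Tpx2 passed the minimum only through their AngII values, so this count is tilted toward genes high in AngII. In the alternatives that tested the same 18 mitotic genes, 16 or 17 of them were higher.

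None of the replication genes passed the test. Pcna, the sliding clamp of DNA polymerase, was at 19.5, 17.9, 17.2, 18.2 and 17.9 FPKM in AngII plus OA hearts, 19.4, 17.4, 17.7, 21.01 and 16.2 FPKM in AngII hearts and 15.9, 13.4, 21.7, 18.2 and 18.5 FPKM in vehicle hearts. The 3 groups overlapped, and the log2 change for AngII against vehicle was 0.072 (95% interval -0.17 to 0.31). Among the helicase subunits, Mcm3 averaged 2.39 ± 0.347 FPKM in AngII plus OA, 2.49 ± 0.355 in AngII and 2.46 ± 0.447 in vehicle hearts (SD, n = 5 each). Mcm4 averaged 2.23 FPKM in AngII plus OA, 2.55 in AngII and 2.47 in vehicle hearts, Mcm7 averaged 3.13 FPKM in AngII plus OA, 3.32 in AngII and 2.85 in vehicle hearts and Mcm2 averaged 0.634 FPKM in AngII plus OA, 0.752 in AngII and 0.820 in vehicle hearts. Mcm5 averaged 1.03 FPKM in AngII plus OA, 1.04 in AngII and 0.898 in vehicle hearts, and its AngII libraries ran from 0.509 to 1.67 FPKM.

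Mcm6 was the 1 of 12 replication genes tested whose AngII and vehicle values did not overlap, which held in the higher direction for 3.13% of all genes tested. It was at 3.02, 3.51, 2.96, 3.59 and 2.27 FPKM in AngII plus OA hearts, 3.17, 3.11, 2.92, 3.12 and 3.04 FPKM in AngII hearts and 2.70, 2.91, 2.55, 2.38 and 2.49 FPKM in vehicle hearts. The AngII values lay within a narrow band, and the log2 change was 0.18 (SE 0.091, limma adjusted p = 0.352), so the separation was small and did not pass.

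The enzymes that make deoxynucleotides are Rrm1 with Rrm2, Tyms and Tk1. Rrm2, the S-phase subunit of ribonucleotide reductase, was at 0.667, 0.5998, 0.944, 0.666 and 0.511 FPKM in AngII plus OA hearts, 1.54, 1.38, 0.740, 0.900 and 1.25 FPKM in AngII hearts and 0.733, 1.09, 0.846, 0.835 and 0.382 FPKM in vehicle hearts. AngII replicates 1, 2 and 5 were above every vehicle library and the groups overlapped (log2 change 0.28, limma adjusted p = 0.275). Rrm1, the large subunit of the same enzyme, averaged 1.51 FPKM in AngII plus OA, 1.64 in AngII and 1.51 in vehicle hearts, with a log2 change of 0.070 and a 95% interval of -0.13 to 0.27. Thymidylate synthase (Tyms) averaged 1.11 FPKM in AngII plus OA, 1.32 in AngII and 1.21 in vehicle hearts, and thymidine kinase 1 (Tk1) averaged 0.770 FPKM in AngII plus OA, 0.858 in AngII and 0.855 in vehicle hearts. Cyclin E2 (Ccne2) averaged 0.605 FPKM in AngII plus OA, 0.787 in AngII and 0.627 in vehicle hearts, with Ints8 covering 17.4% of its exon bases on the opposite strand.

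The 3 replication genes under the testing minimum were Cdc6, which loads the helicase, at 0.235 FPKM in AngII plus OA, 0.315 in AngII and 0.243 in vehicle hearts, cyclin E1 (Ccne1), at 0.394 FPKM in AngII plus OA, 0.463 in AngII and 0.330 in vehicle hearts, and the transcription factor E2f1, at 0.435 FPKM in AngII plus OA, 0.538 in AngII and 0.341 in vehicle hearts. In the second fit their log2 changes for AngII against vehicle were 0.26, 0.39 and 0.48, with limma adjusted p from 0.572 to 0.644. Of the 12 replication genes in the first fit 11 were higher, beside 65.7% of all genes, 7 to 11 were in the alternatives on the same 12 genes, and 7 were after quantile normalization or rescaling without mitochondrial genes, where Pcna, Mcm3, Mcm4 and Tk1 changed sign.

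**Figure D3:**
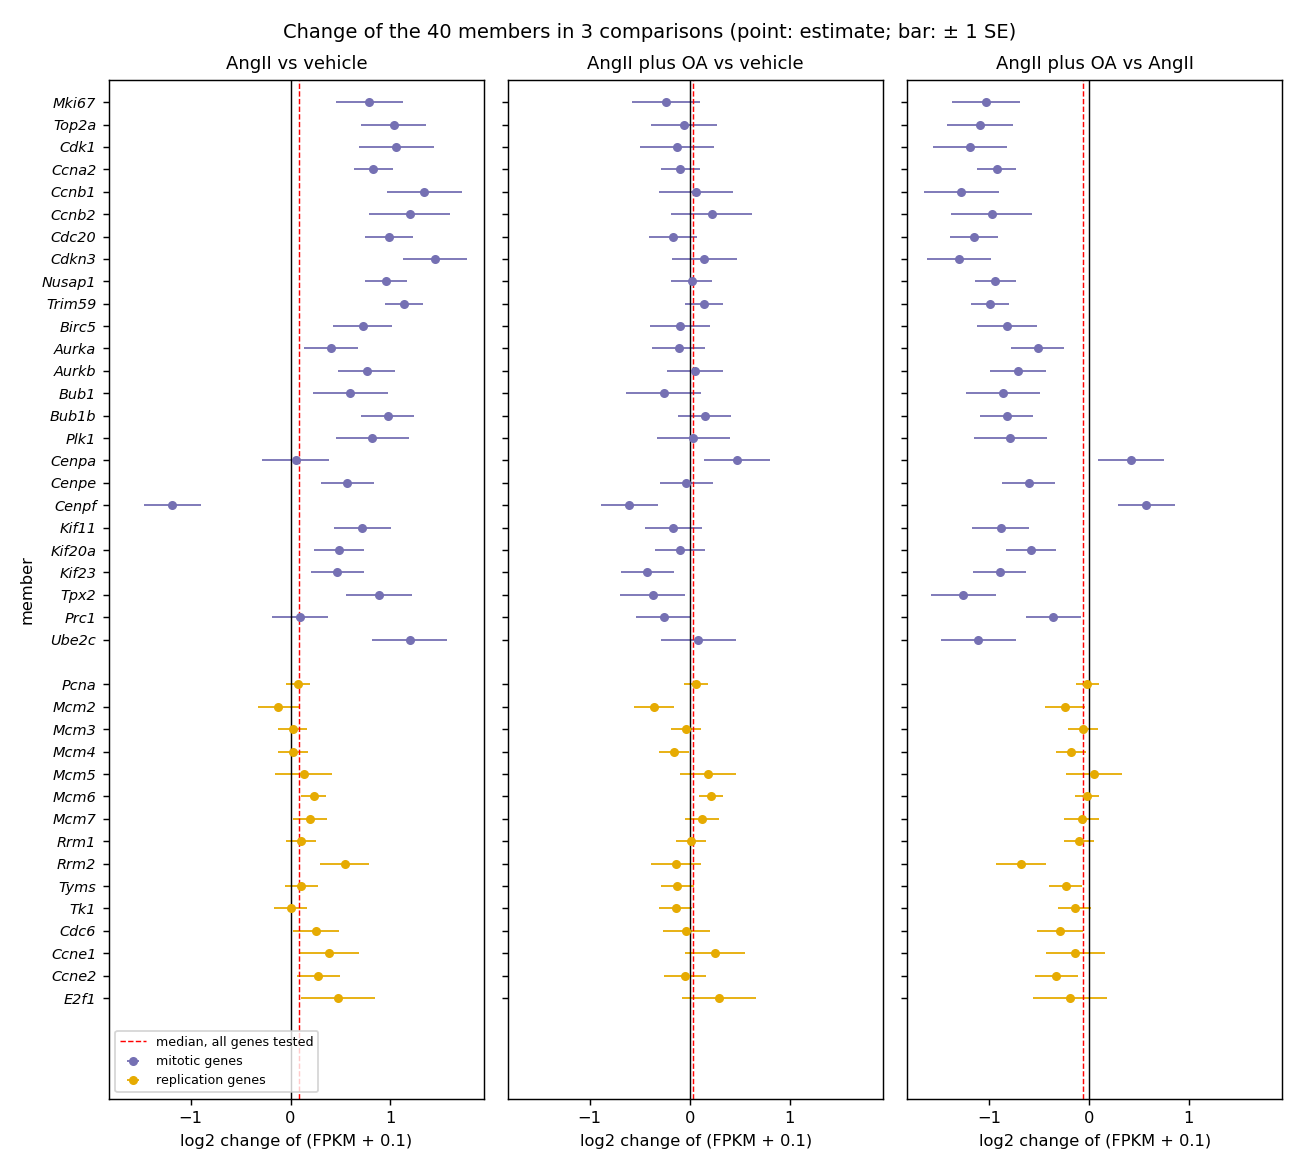
Log2 change of FPKM + 0.1 (horizontal axis) of each of the 40 members (rows) in the 3 comparisons, with bars of 1 SE and a dashed line at the median of all 17361 genes tested. Mitotic genes other than Cenpf lie right of 0 for AngII against vehicle and, other than Cenpf and Cenpa, left of 0 for AngII plus OA against AngII, while the replication genes have medians of 0.13 and -0.14 in these comparisons.

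With daily oleic acid beside the same pump, 16 of the 18 mitotic genes tested were lower in AngII plus OA than in AngII hearts, beside 63.4% of all genes, and none passed the test, as for 0 of the 13121 genes in limma. At an unadjusted p under 0.05, 15 mitotic genes were lower, where 5.25% of all genes were lower (689) and 1.35% higher (177). The AngII plus OA and AngII values did not overlap for 6 mitotic genes, all lower, which held for 1.04% of all genes. These 6 were Ccna2, Cdc20, Cdkn3, Nusap1, Trim59 and Tpx2. Ccna2 and Tpx2 passed the minimum for the test only through their AngII values, as did Top2a, Birc5, Bub1b, Plk1 and Kif11 among the 15. Counts and the median over the mitotic genes tested are thus tilted toward genes lower in AngII plus OA, and the second fit of all members is given below. The median log2 change was -0.50 over the mitotic genes, -0.068 over the replication genes and -0.052 over all genes. The comparison shares the AngII libraries with the one against vehicle, so a high AngII value moves a gene in both.

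The 3 smallest p among mitotic genes belonged to genes called against vehicle. Trim59 averaged 0.679 ± 0.171 FPKM in AngII plus OA and 1.44 ± 0.264 in AngII hearts (log2 change -0.54, SE 0.10, limma adjusted p = 0.574). Cdc20 averaged 1.11 ± 0.281 FPKM in AngII plus OA and 2.59 ± 0.723 in AngII hearts (log2 change -0.76, SE 0.15, limma adjusted p = 0.574). Cdkn3 averaged 0.729 ± 0.281 FPKM in AngII plus OA and 1.86 ± 0.487 in AngII hearts (log2 change -0.73, SE 0.15, limma adjusted p = 0.574). For these 3 the lowest AngII library was above the highest AngII plus OA library. Tpx2 was at 0.135, 0.421, 0.448, 0.387 and 0.196 FPKM in AngII plus OA against 1.25, 0.469, 0.696, 1.12 and 0.898 FPKM in AngII hearts (log2 change -0.51). Mki67, whose 5 AngII plus OA libraries ran from 0.544 to 1.18 FPKM, had a log2 change of -0.62 (SE 0.20).

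Cenpa and Cenpf were the mitotic genes higher in AngII plus OA than in AngII hearts, with log2 changes of 0.36 (95% interval -0.25 to 0.98) and 0.21 (95% interval -0.059 to 0.48). In the second fit 23 of 25 mitotic genes were lower in AngII plus OA, beside 60.8% of all genes, 21 of them at an unadjusted p under 0.05 beside 4.95% of all genes, with a median log2 change of -0.89 against -0.14 over the 15 replication genes and -0.063 over all genes. Among replication genes Rrm2 was the 1 with an unadjusted p under 0.05, averaging 0.678 ± 0.162 FPKM in AngII plus OA and 1.16 ± 0.334 in AngII hearts (log2 change -0.36, SE 0.13, limma adjusted p = 0.706). Next by p were Ccne2 (log2 change -0.15, SE 0.10) and Tyms (-0.14, SE 0.098).

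AngII plus OA against vehicle asks how far the treated hearts stood from saline. No gene passed in limma, and at an unadjusted p under 0.05 338 were higher (2.58%) and 103 lower (0.785%). The mitotic median was -0.028, with 8 of 18 higher, beside 58.3% of all genes higher and 41.7% lower. The replication median was -0.024, with 5 of 12 higher. These directions depended on the setting, with 3 to 16 of 18 mitotic and 3 to 7 of 12 replication genes higher over the alternatives, and the median over all genes was 0.025. No member had values that did not overlap between the groups, which held for 0.655% of all genes in the higher and 0.183% in the lower direction. The mitotic genes with the smallest p were Cenpf (log2 change -0.28, 95% interval -0.55 to -0.013), the 1 member at an unadjusted p under 0.05, then Cenpa (0.43, -0.18 to 1.05) and Tpx2 (-0.13, -0.41 to 0.15). The replication genes with the smallest p were Mcm6 (log2 change 0.17, 95% interval -0.029 to 0.36), Mcm2 (-0.16, -0.37 to 0.045) and Mcm4 (-0.11, -0.34 to 0.13).

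For the genes called under AngII alone, the intervals for AngII plus OA against vehicle are on the log2(FPKM + 1) scale. That scale understates the change of genes this low. For Trim59 the AngII plus OA to vehicle interval was -0.15 to 0.28, for Cdkn3 -0.26 to 0.40, for Nusap1 -0.23 to 0.24 and for Cdc20 -0.43 to 0.23, each around a change smaller than its SE. For Mki67 the interval was wider, -0.58 to 0.29. In the second fit, with a pseudocount of 0.1, all of these intervals were wider. They were -0.26 to 0.55 for Trim59, -0.54 to 0.83 for Cdkn3, -0.42 to 0.46 for Nusap1 and -0.68 to 0.35 for Cdc20. For Mki67 that fit gave -0.96 to 0.48.

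The hearts of a group differed in their mitotic transcripts. For each library the FPKM of every mitotic gene was divided by its vehicle mean and the median taken. It was 0.747, 1.13, 1.01, 1.07 and 0.630 in AngII plus OA replicates 1 to 5, 2.74, 1.32, 1.19, 1.93 and 2.13 in AngII replicates and 0.985, 1.57, 0.889, 0.675 and 0.772 in vehicle replicates. AngII replicates 1, 4 and 5 were the highest of the 15, and AngII replicates 2 and 3 lay below vehicle replicate 2. The same ratio over the 15 replication genes stayed between 0.811 and 1.23, and over all genes tested between 0.954 and 1.12. Over all genes it was 1.08, 1.12 and 1.09 in AngII replicates 1, 4 and 5, and 1.09 in AngII plus OA replicate 4.

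**Figure D4:**
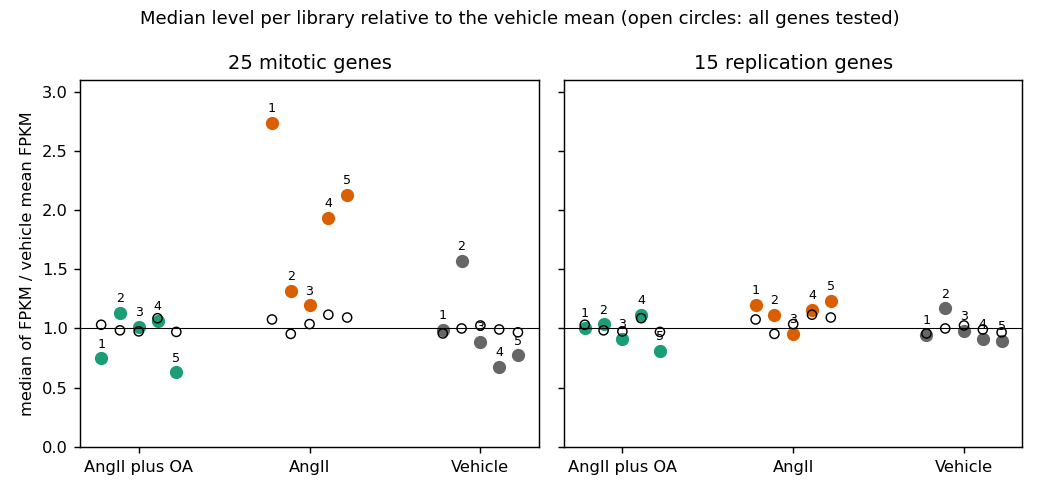
Median over the members of FPKM divided by the vehicle mean (vertical axis), per library, for 25 mitotic genes (left) and 15 replication genes (right), with numbers for replicates and open circles for all genes tested. AngII replicates 1, 4 and 5 reach 1.93 to 2.74 on the left, while no library passes 1.23 on the right.

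AngII replicate 1 was the highest of all 15 libraries for 19 of the 25 mitotic genes. For 22 of 25 the highest library was an AngII one, and this held for 11 of 15 replication genes. No such share over all genes is given here, and how far library scale enters these ranks was not tested. The 3 highest libraries were exactly AngII replicates 1, 4 and 5 for 12 mitotic genes, among them Top2a, Cdk1, Ccnb1, Ccnb2, Cdc20 and Ube2c, and for 0 replication genes. Within vehicle, replicate 2 was the highest for 20 of 25 mitotic genes, and within AngII plus OA, replicate 5 was the lowest for 13. The median coefficient of variation between the 5 libraries of a group was 36.2% in AngII plus OA, 39.5% in AngII and 42.9% in vehicle for the mitotic genes, and 22%, 21.5% and 17.6% in the same groups for the replication genes. The mitotic genes rest on fewer reads, and what part of their larger spread is counting error was not tested.

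**Figure D5:**
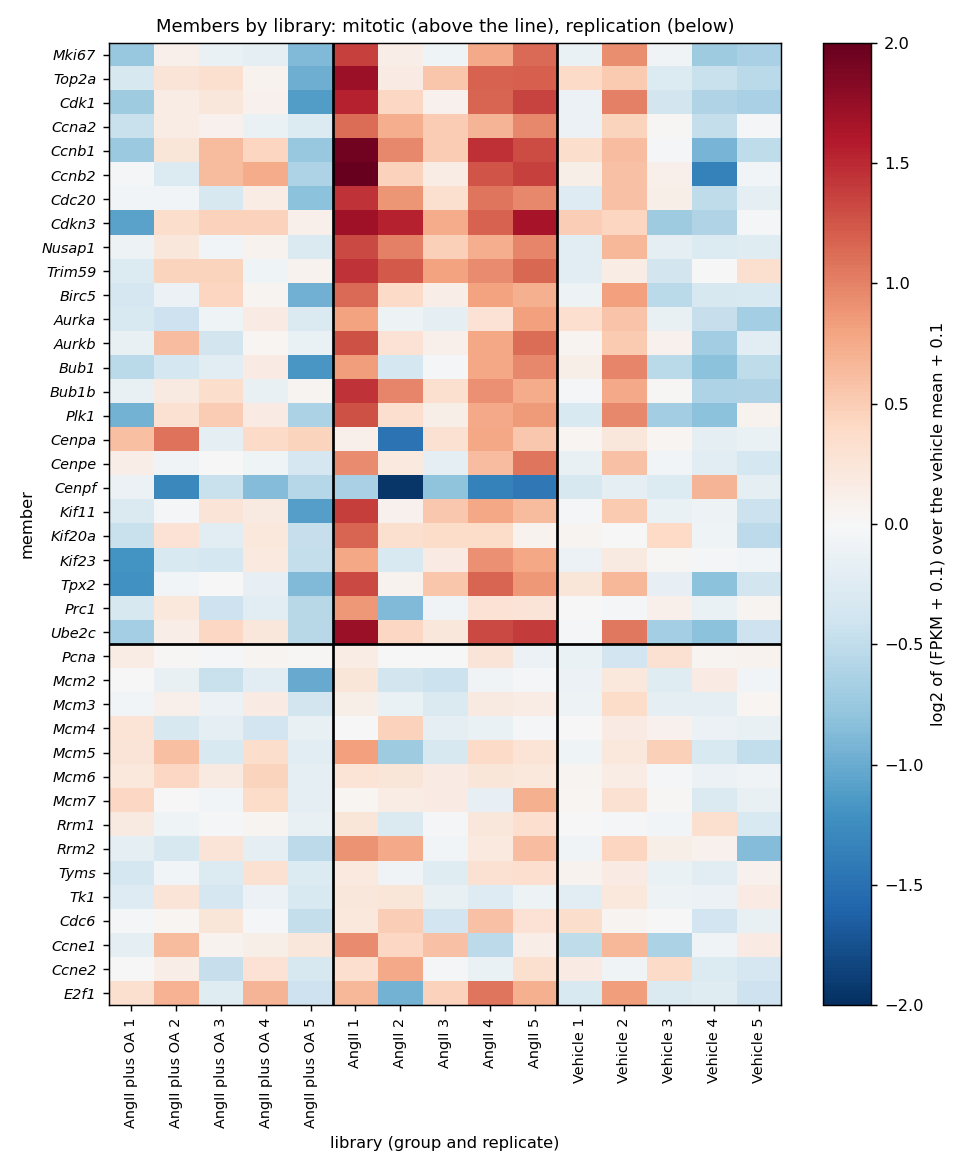
Log2 of FPKM + 0.1 over the vehicle mean + 0.1 for the 40 members (rows) in the 15 libraries (columns, grouped as AngII plus OA, AngII and vehicle), with the colour capped at 2 in either direction and a line between mitotic and replication genes. Most mitotic rows are above the vehicle mean in AngII replicates 1, 4 and 5, while Cenpf is below it in all 5 AngII libraries.

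Further genes of both processes came from lists that leave out the 40. Of 51 further mitotic genes, 23 passed the minimum. A gene near the minimum passes it more readily if it is high in AngII. Counts and medians over those tested can thus be tilted toward such genes in both comparisons that use AngII. No fit with a lower minimum is given for these lists. Of the 23, 19 were higher in AngII than in vehicle hearts (65.7% of all genes were) with a median log2 change of 0.37. Of them 1 was called, where 1.27% of all genes tested were called higher. That was Cdc25b, a phosphatase that activates the mitotic kinase, at 2.16, 2.01, 1.70, 2.39 and 1.48 FPKM in AngII plus OA hearts, 2.90, 2.05, 2.11, 1.94 and 2.75 FPKM in AngII hearts and 1.66, 1.55, 1.09, 1.152 and 1.27 FPKM in vehicle hearts. All AngII libraries were above all vehicle libraries, as for 3.13% of all genes tested in the higher direction. The log2 change of Cdc25b was 0.51 (SE 0.11, limma adjusted p = 0.0363), and its AngII plus OA mean lay between the AngII and vehicle means. Its call was lost in 12 of 19 alternatives. Of 44 further replication genes, 34 passed the minimum, 19 were higher, none was called in limma and the median was 0.031; 2 had an unadjusted p under 0.05, 1 in each direction, beside 13.3% of all genes higher and 3.29% lower. For AngII plus OA against AngII the medians were -0.38 over the further mitotic genes and -0.026 over the further replication genes. In their promoters the CHR letters were in 77.5% of 40 mitotic and 17.1% of 35 replication windows, and the E2F letters in 17.5% and 45.7%. CCAAT letters were in 60% of these mitotic and 51.4% of these replication windows.

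No regulator of the G1 phase was called. All 9 G1 cyclins and kinases were tested, with a median log2 change of 0.014 for AngII against vehicle and none called or at an unadjusted p under 0.05 in limma. Cyclin D1 (Ccnd1) averaged 4.81 ± 0.799 FPKM in AngII plus OA, 4.56 ± 2.503 in AngII and 5.43 ± 1.98 in vehicle hearts (SD, n = 5 each), cyclin D2 (Ccnd2) averaged 4.52 FPKM in AngII plus OA, 5.04 in AngII and 5.02 in vehicle hearts, and cyclin D3 (Ccnd3) averaged 5.67 FPKM in AngII plus OA, 6.66 in AngII and 5.66 in vehicle hearts. Their kinase Cdk4 averaged 14.7 FPKM in AngII plus OA, 13.5 in AngII and 15.1 in vehicle hearts. Of 6 CDK inhibitors tested 5 were higher (median 0.48), beside 65.7% of all genes, and none was called in limma. At an unadjusted p under 0.05, 4 of them were higher, beside 13.3% of all genes. Cdkn1a (p21) was at 25.8, 21.2, 44.2, 61.4 and 34.2 FPKM in AngII plus OA hearts, 55.9, 139, 43.3, 112 and 55.0 FPKM in AngII hearts and 62.9, 14.2, 66.0, 33.0 and 30.8 FPKM in vehicle hearts. It varied widely in every group, and its log2 change of 1.0 for AngII against vehicle had an SE of 0.42. Cdkn1b (p27) averaged 9.70 FPKM in AngII plus OA, 12.05 in AngII and 8.82 in vehicle hearts, and Cdkn1c (p57) averaged 9.31 FPKM in AngII plus OA, 9.77 in AngII and 11.4 in vehicle hearts.

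Of 12 pocket protein, E2F and DREAM genes tested 11 were higher in AngII than in vehicle hearts (median 0.15), beside 65.7% of all genes, and none was called in limma. At an unadjusted p under 0.05, 3 of them were higher, beside 13.3% of all genes. Foxm1, the forkhead activator of mitotic genes, averaged 0.231 ± 0.0819 FPKM in AngII plus OA, 0.445 ± 0.151 in AngII and 0.293 ± 0.184 in vehicle hearts (SD, n = 5 each), under the minimum for testing. Mybl2 (B-Myb) averaged 0.125 ± 0.0892 FPKM in AngII plus OA, 0.258 ± 0.120 in AngII and 0.138 ± 0.0358 in vehicle hearts, also under it. E2f4, the E2F of the DREAM complex, averaged 10.2 FPKM in AngII plus OA, 10.8 in AngII and 10.0 in vehicle hearts (log2 change 0.086 for AngII against vehicle), and Rb1 averaged 4.91 FPKM in AngII plus OA, 5.84 in AngII and 4.497 in vehicle hearts (log2 change 0.32, limma adjusted p = 0.234).

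Macrophage and fibroblast markers were also higher in AngII than in vehicle hearts. Of all genes tested, 65.7% were higher in that comparison and 1.27% were called higher, with a median log2 change of 0.075. All 13 macrophage markers were higher and 5 were called (Cd163, C1qa, C1qb, C1qc and Itgam), with a median log2 change of 0.56. Their summed level was 353 to 599 FPKM in AngII plus OA, 468 to 698 in AngII and 288 to 405 in vehicle hearts, so the AngII and vehicle ranges did not overlap. All 9 fibroblast markers were higher and 5 were called (Col1a1, Col1a2, Col3a1, Pi16 and Postn), with a median of 1.39 and sums of 573 to 1086 FPKM in AngII plus OA, 779.7 to 1307 in AngII and 388 to 734 in vehicle hearts. Of 9 endothelial markers 8 were higher and none was called in limma (median 0.23), with sums of 279 to 389 FPKM in AngII plus OA, 325 to 459.9 in AngII and 294 to 379 in vehicle hearts. The 8 cardiomyocyte markers had a median of -0.14 and none was higher. For AngII plus OA against AngII the medians were -0.22 (macrophage), -0.60 (fibroblast), -0.28 (endothelial) and 0.27 (cardiomyocyte), beside -0.052 over all genes. For AngII plus OA against vehicle the macrophage median was 0.40 and the fibroblast median 0.61, beside 0.025 over all genes. The T and B cell sums were 5.24 to 9.66 FPKM in AngII plus OA, 5.97 to 53.5 in AngII and 3.29 to 12.5 in vehicle hearts, with AngII replicate 2 the highest, and the defining T and B cell markers Cd3e and Ms4a1 averaged 0.0987 and 0.108 FPKM in AngII hearts. What part of the mitotic difference comes from a change in any of these cell types was not tested.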

How the data were processed

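Poly(A) RNA of 15 ventricle libraries, 5 per group, was sequenced on an Illumina HiSeq2000, per the labels' protocols. The authors deposited 1 table of FPKM values for 36653 gene identifiers. Per the submitters' processing notes, HISAT2 2.0.4 was used with a build named mm8. No source used here gives the counter, the annotation or the strand setting. Symbols came from GENCODE M21, which matched 36464 identifiers. Whole reads were recovered from FPKM, exon length and library total to describe depth only; 36 members gave them with the summed exon length and 4 (Cdk1, Cdkn3, Kif11 and Kif20a) with another length.

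The test was limma 3.58.1 (R 4.3.3), with a mean-variance trend, of log2(FPKM + 1). It covered the 13121 genes whose mean FPKM reached 0.5, and group was the sole term over all 15 libraries. Tests were 2-sided and Benjamini-Hochberg adjusted over all genes within each comparison, with a threshold of 0.05. A second fit used a pseudocount of 0.1 and a minimum of 0.1 FPKM (17361 genes). Tested on simulated data for AngII against vehicle over 13121 genes, 80.0% of log2 changes of 1 and 96.0% of log2 changes of 2 were recovered. Changes as small as those of the members, at most 0.80 (Cdkn3) in that comparison, were not simulated. The recovery of such changes is therefore not known. Each p-value sets a difference between groups against the spread between these libraries, as moderated by limma over all genes.

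The members, gene lists and tests were chosen with earlier results of these data known, so lists are described by counts and medians and were not tested. Values are given for every member, with full statistics for members called in a comparison or, where none was, for the 3 mitotic and 3 replication genes with the smallest p. Of the other cell cycle lists, called genes and 11 fixed genes are given. Promoters were matched by symbol to the RefSeq table (GRCm38.p6), the first window being used for 2 members with several.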

Additional observations from a re-analysis of the deposited data

Results flagged for a closer look

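In 120 groups of 5 libraries (40 members in 3 groups), 10 had 1 library whose gap to the nearest other library, as a share of the group's range, was above Dixon's 95% critical value. Chance alone flags about 1 in 20 groups.

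Of the 10, 7 were vehicle replicate 2 standing above the other vehicle libraries. Its values were 2.16 FPKM for Mki67 (the others at most 1.03), 1.39 FPKM for Cdk1 (at most 0.590), 1.06 FPKM for Nusap1 (at most 0.549), 0.898 FPKM for Birc5 (at most 0.428), 0.326 FPKM for Cenpe (at most 0.172), 1.69 FPKM for Ube2c (at most 0.752) and 0.684 FPKM for E2f1 (at most 0.272). Without vehicle replicate 2 the same 4 members were called for AngII against vehicle, while the whole table gave 79 calls in place of 197.

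Cenpf was at 1.51 FPKM in vehicle replicate 4, against 0.703 to 0.783 in the other vehicle libraries. Kif20a was at 0.767 FPKM in AngII replicate 1, against 0.308 to 0.401 in the other AngII libraries. Mcm4 was at 3.44 FPKM in AngII replicate 2, against 2.16 to 2.45 in the other AngII libraries.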

How the results depend on the processing

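For AngII against vehicle the 4 members called became 2 with a mean FPKM of at least 1 (Cdc20 and Cdkn3), 1 with no filter (Trim59), 2 after quantile normalization, 2 with the FPKM rescaled without mitochondrially encoded genes and 2 with only the AngII and vehicle libraries in the fit (each Cdkn3 and Trim59), and 1 to 6 on leaving out 1 library. The 197 genes called became 72 with no filter, 118 after quantile normalization, 114 rescaled, 70 with only those libraries and 49 to 425 on leaving out 1 library. The cause was not tested. Trim59 kept its call in all 18 alternatives that tested it, and Nusap1 lost its call in 13 of 18. Neither was tested with a minimum of 1 FPKM. Cdkn3 lost its call in 6 of 19, Cdc20 in 16 of 19 and Cdc25b in 12 of 19. All of these genes kept the same sign. The mitotic median of 0.45 was 0.92 with a pseudocount of 0.1 and 0.82 with the minimum at 0.1 FPKM as well, since a smaller pseudocount compresses low values less; for AngII plus OA against AngII -0.50 became -0.95 and -0.89. In limma, no gene was called for AngII plus OA against vehicle in any of 20 alternatives, and 0 or 1 against AngII on leaving out 1 library, that 1 without AngII replicate 3 and not a member. No called member changed sign.

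The main fit did not pair the hearts by replicate number. Same-numbered libraries correlated from -0.35 to 0.43 in their deviations from the group means. A library correlated best with its own number in 0 of 5 (AngII and vehicle), 1 of 5 (AngII plus OA and vehicle) and 2 of 5 (AngII plus OA and AngII). With 5 libraries a group, these correlations cannot tell whether same-numbered hearts were paired or shared a batch. With the replicate block in the fit, 38 genes and 1 member (Trim59) were called for AngII against vehicle, and no gene in the other comparisons. The median mitotic gene rests on 66.1 reads per library, and 10 of 40 members were tested in the second fit alone. Leaving AngII replicate 2 out of the shared spread, added after seeing the data, left AngII plus OA against vehicle at 0 calls.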

Other observations

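Among the other cell cycle lists, a few genes had AngII and vehicle values that did not overlap without passing the test. Of all genes tested, 3.13% did not overlap in the higher and 0.663% in the lower direction, so some such genes occur in any list. The genes below were chosen after their values were seen. The CDK4/6 inhibitor Cdkn2c (p18) was at 6.15, 7.79, 5.35, 5.29 and 5.78 FPKM in AngII against 3.98, 5.15, 2.72, 3.95 and 3.70 FPKM in vehicle hearts (log2 change 0.54, limma adjusted p = 0.0739). Its relative Cdkn2d (p19) was at 9.25, 18.8, 9.19, 9.89 and 9.88 FPKM in AngII against 7.77, 8.30, 7.87, 5.74 and 6.77 FPKM in vehicle hearts (log2 change 0.54, limma adjusted p = 0.115), with AngII replicate 2 far above the rest. Lin54, the MuvB subunit that contacts the CHR, averaged 1.70 ± 0.240 FPKM in AngII and 1.22 ± 0.169 in vehicle hearts (SD, n = 5 each; log2 change 0.29, limma adjusted p = 0.107). Smc4, a condensin subunit, reached 18.9 FPKM in AngII replicate 2 and was between 5.97 and 9.18 in the other AngII libraries, against at most 5.71 in vehicle hearts.

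Among the further replication genes, Dut, the dUTPase that keeps uracil out of DNA, was chosen because its AngII values were all below its vehicle values. This held for 0.663% of all genes tested. Dut was at 5.10, 4.35, 5.06, 4.73 and 5.18 FPKM in AngII against 5.27, 6.76, 6.29, 7.16 and 6.60 FPKM in vehicle hearts (log2 change -0.33, limma adjusted p = 0.136), and the AngII plus OA libraries ran from 4.47 to 6.40 FPKM.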
